A study of Mus musculus with 15 samples.

Results

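The comparison described here set tumours carrying the histone mutant H3.3G34R against tumours carrying wild-type H3.3 (H3.3WT), all raised in mice with floxed Trp53 and floxed Atrx. It used the 8 of 15 libraries whose labels give the genotype Np53fl;ATRXfl/fl, 4 with the H3.3 expression label G34R mutant and 4 labelled wildtype. All were RNA-seq libraries of frontal cortex tumours in C57BL/6 mice with Nestin Tv-a, p53 fl/fl and ATRX fl/fl. In such mice the Nestin promoter places the avian virus receptor Tva on neural progenitors, so that RCAS viruses enter those cells. DF-1 cells, a chicken fibroblast line that produces the virus, carried RCAS-PDGFA and RCAS-Cre, with RCAS-H3.3G34R-GFP in the one group and RCAS-H3.3WT-GFP in the other, and were injected into the cortex. The mice were kept to a functional end point. Both groups thus share Cre, PDGFA, an added GFP-tagged H3.3 and the floxed Trp53 and Atrx alleles. Tumours of Np53fl mice, whose Atrx is not floxed, with H3.3G34R (3 libraries) or H3.3WT (4 libraries) were used only to ask whether the histone's effect differed with Atrx. Each title carries its own number after the hash sign, but no label states that each library is a separate mouse, so p-values measure the spread between these libraries. H3.3G34R replicates 1 and 4 share the code that begins their titles, whose meaning no label gives. If both came from 1 source, H3.3G34R would have 3 separate samples, and with these libraries summed limma also called 0 genes (452 at an unadjusted p under 0.05).

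H3.3 is the histone H3 variant placed in chromatin outside DNA replication, in part by the ATRX and DAXX complex at repeats and telomeres. The G34R substitution lies beside lysine K36 on the histone tail and impairs methylation of that lysine on the mutant histone, and K36 methylation is known to oppose the Polycomb complex PRC2, which places the silencing mark on lysine K27. In people the mutation marks gliomas of the cerebral hemispheres that usually also carry mutations of ATRX. The series title names PRC2 targets, Notch activation and the neuronal lineage as the subjects of the study.

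Libraries held 22807315 to 27495222 reads in genes with H3.3G34R and 24022308 to 29976738 with H3.3WT. The glioma progenitor markers were abundant in every tumour: Pdgfra, the PDGF receptor of oligodendrocyte progenitors, had 53219 to 111052 normalized read counts with H3.3G34R and 57889 to 122735 with H3.3WT, and Olig2 had 7843 to 20732 with H3.3G34R and 11620.5 to 28958 with H3.3WT. A normalized read count is the read count of a gene divided by the size factor of its library. Some tumours stood apart in markers of other cells. H3.3G34R replicate 3 had the most of the mature cortical neuron and myelin markers, H3.3G34R replicate 4 the most mitosis gene counts, and H3.3WT replicate 1 the most vessel and red cell markers and the fewest mitosis gene counts. Results below are therefore also given without these libraries where it matters.

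Atrx was lower in every Atrx-floxed tumour than in any Atrx-intact tumour. On the scale of all 15 libraries it had 1346 to 3124 normalized counts in the 8 Atrx-floxed tumours and 5143 to 8540.0 in the 7 Atrx-intact tumours. Between the histone groups, which both carry the floxed allele, it did not separate. Atrx (chromosome X, 105797615 to 105929403 in mm10, minus strand) had 1896, 2795, 2968 and 1330.2 normalized counts in the 4 H3.3G34R tumours and 2296, 2396, 1893 and 3071 in the 4 H3.3WT tumours. The groups overlapped, with a log2 change of -0.15 (SE 0.28), and reads remained in every tumour. Counts over a whole gene do not show whether the floxed exon was lost. Trp53, the floxed tumour suppressor, had 811, 911, 704 and 992 counts with H3.3G34R and 2079, 1693, 576 and 647 with H3.3WT. The first and second H3.3WT tumours were high and the other two below all H3.3G34R tumours (log2 change -0.34, SE 0.41). Pdgfa, which the virus also encodes, averaged 26126 ± 12820.3 with H3.3G34R and 22827 ± 7345 with H3.3WT (SD, n = 4 each), and the overlapping groups gave a log2 change of 0.16 (SE 0.38). H3f3b, which encodes H3.3, had 6215 to 13408 counts with H3.3G34R and 6834 to 10547 with H3.3WT. H3f3a had 147 to 305 with H3.3G34R and 195 to 238 with H3.3WT, and its reads are uncertain because near-identical copies exist in the genome. Counts per gene do not separate the viral transcripts from those of the mouse genes.

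Across the genome, few genes separated the groups. With limma on log2(normalized count + 1), 0 of 17521 genes passed a Benjamini-Hochberg adjusted p of 0.05 (0.0%). An unadjusted p under 0.05 was reached by 488 genes (2.79%), of which 282 were higher with H3.3G34R (1.61%) and 206 lower (1.18%). The groups did not overlap for 168 genes that were higher (0.959%) and 211 that were lower (1.2%), 379 in all (2.16%), and 8743 genes had a positive log2 change (49.9%). The edgeR quasi-likelihood test on the recovered reads also called 0 genes, and 745 genes had an unadjusted p under 0.05 there. In comparison, the authors' deposited table holds 34 of 18712 genes at an adjusted p under 0.05 (0.182%), 29 higher with H3.3G34R (0.155%) and 5 lower (0.0267%), and DESeq2 on the recovered reads called the same 34. Of these 29 higher genes, 21 had groups that did not overlap, and 19 had their highest count in H3.3G34R replicate 3. Of all 34, 33 had an unadjusted limma p under 0.05, 27 without H3.3G34R replicate 3 and 23 without H3.3G34R replicates 3 and 4. No gene described below was called by limma, and each is given by its counts. The limma adjusted p of a gene is 0.9997 where no other is printed.

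Among genes whose groups did not overlap, the 10 higher with H3.3G34R that had the smallest limma p were Syt4, Golga7b, Nefm, Adcy8, Gdnf, Cdh8, Cacng2, Rph3a, Socs5 and Trib1. Syt4, a synaptotagmin of dense-core and synaptic vesicles that is also induced by activity (chromosome 18, 31437808 to 31447406, minus strand), had 3479, 2020.1, 1512 and 2213 counts with H3.3G34R and 627, 542, 424 and 485 with H3.3WT. Every H3.3G34R tumour was above every H3.3WT tumour, and the highest was H3.3G34R replicate 1, not replicate 3. The log2 change was 2.10 (SE 0.27), with a limma adjusted p of 0.146, an edgeR adjusted p of 0.214 and an adjusted p of 1.54e-07 in the authors' deposited table. Golga7b, a partner of protein palmitoyltransferases (chromosome 19, 42247574 to 42270348, plus strand), had 229.8, 96.7, 246 and 57.2 counts with H3.3G34R and 6.69, 6.86, 8.54 and 10.2 with H3.3WT. Its 4 H3.3WT values were all low and close together, and the log2 change was 3.90 (SE 0.54, limma adjusted p = 0.199). Nefm, the medium neurofilament chain of axons (chromosome 14, 68082590 to 68124846, minus strand), had 499.8, 1247, 711 and 514 counts with H3.3G34R and 125, 114, 167 and 198 with H3.3WT. Here too the groups did not overlap (log2 change 2.22, SE 0.36, limma adjusted p = 0.488). The annotated Nefm and Nefl genes overlap on opposite strands and the strand setting of the counting is not given in the sources used here, so reads shared by both models cannot be assigned.

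**Figure D1:**
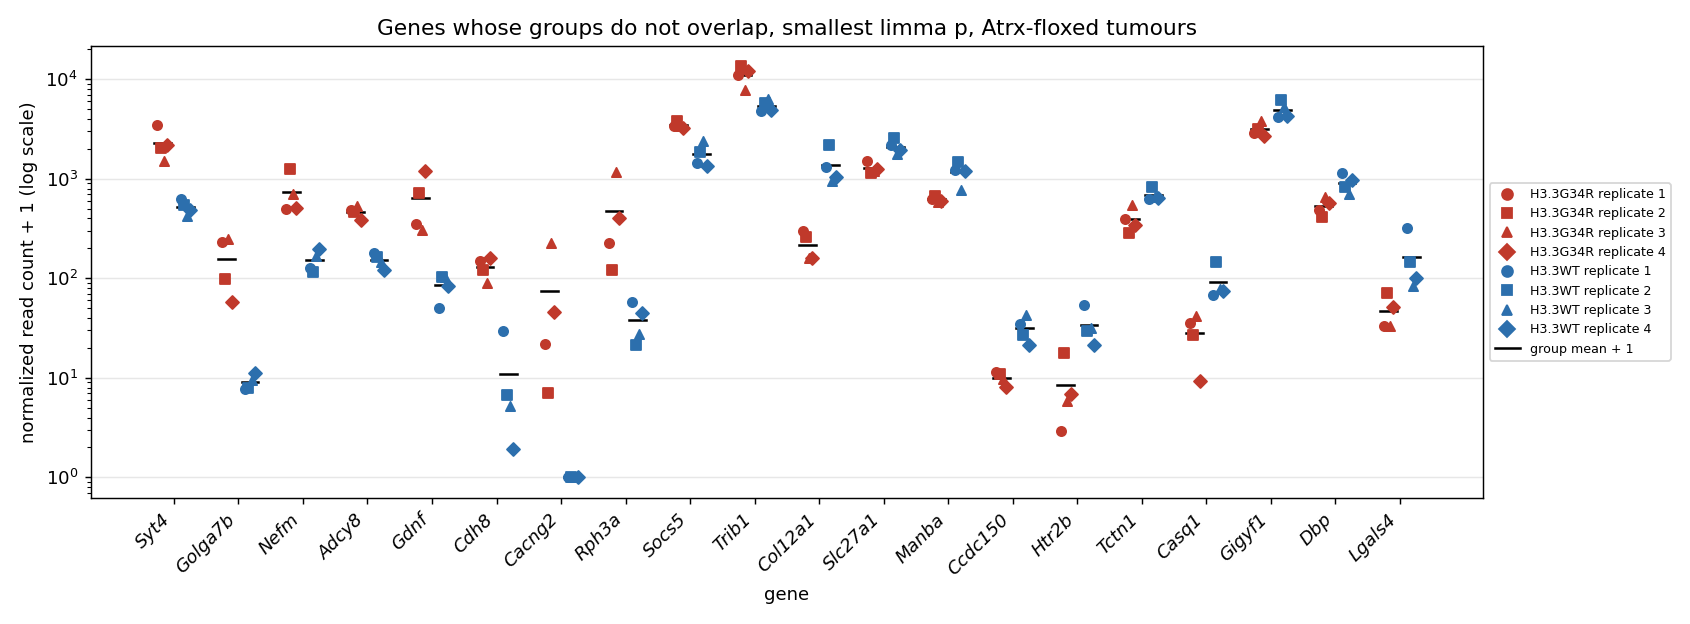
Normalized read count plus 1 (log axis) of the genes with the smallest p among those whose groups do not overlap, in the 4 H3.3G34R (left of each pair) and 4 H3.3WT tumours, with symbols for replicates and a line at the group mean. Syt4 lies between 1512 and 3479 with H3.3G34R and between 424 and 627 with H3.3WT, while Rph3a reaches 1162 in H3.3G34R replicate 3 alone.

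Among signalling genes, Adcy8, a calcium-stimulated adenylyl cyclase of neurons (chromosome 15, 64697084 to 64922296, minus strand), had 481, 463, 531 and 381 counts with H3.3G34R and 179, 163, 144 and 121 with H3.3WT. Both groups were tight and far apart, with a log2 change of 1.61 (SE 0.27, limma adjusted p = 0.489). Gdnf, a neurotrophic factor for dopaminergic and motor neurons that acts through the receptor kinase Ret (chromosome 15, 7810846 to 7837575, plus strand), had 349.5, 722, 307 and 1195 counts with H3.3G34R and 49.7, 103, 103 and 83.7 with H3.3WT. Its lowest H3.3G34R tumour was replicate 3, and the groups did not overlap (log2 change 2.74, SE 0.48, limma adjusted p = 0.546). Ret had 459, 33.9, 161 and 107 counts with H3.3G34R and 47.8, 122, 106 and 48.4 with H3.3WT, with overlapping groups. Of the 20 listed neurotrophic factors and receptors, 14 were tested, and Gdnf was the one with an unadjusted p under 0.05. Socs5, a suppressor of cytokine and growth factor signalling, had 3383, 3792, 3439 and 3243 counts with H3.3G34R and 1439, 1867, 2405 and 1337 with H3.3WT. Trib1, a pseudokinase that promotes protein degradation, had 11197, 13484, 7802 and 12193 with H3.3G34R and 4773, 5737, 6304 and 4961 with H3.3WT. For both the groups did not overlap, with log2 changes of 1.01 (SE 0.21) for Socs5 and 1.02 (SE 0.22) for Trib1. The authors' deposited table calls Trib1 but not Socs5 (adjusted p = 0.0395 for Trib1 and 0.107 for Socs5).

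The remaining genes of the 10 were low or at 0 with H3.3WT. Cdh8, a cadherin of synaptic contacts (chromosome 8, 99024471 to 99416471, minus strand), had 149, 121, 89.9 and 159.7 counts with H3.3G34R and 28.7, 5.72, 4.27 and 0.931 with H3.3WT, and the log2 change was 4.25 (SE 0.75, limma adjusted p = 0.546). Cacng2, which encodes the AMPA receptor partner stargazin, had 21.1, 5.98, 225 and 45.3 counts with H3.3G34R and was at 0 in all 4 H3.3WT libraries. Against a floor of 3 reads per library, its H3.3G34R mean was at least 25.5-fold higher, with a limma adjusted p of 0.922 and its highest value in replicate 3. Rph3a, the vesicle protein rabphilin, had 226, 119.6, 1162 and 400.5 counts with H3.3G34R and 56.4, 20.6, 26.5 and 43.7 with H3.3WT. Its groups did not overlap, and the log2 change of 3.26 was 2.24 without H3.3G34R replicates 3 and 4.

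In mammals, Polycomb complexes mostly occupy promoters rich in CpG dinucleotides, which is why the start regions of these genes are shown. RefSeq windows of 300 bases (250 before and 50 after a start, GRCm38.p6) were found for 5 of the 10 genes described above (Golga7b, Gdnf, Cdh8, Cacng2 and Rph3a), 9 windows in all. The richest window of each gene held 16 to 23 CpG, against a median of 7 over all 32851 windows, and 6 of the 9 windows exceeded that median. The richest window is a maximum over the starts of a gene, so it is not like that median over single windows. The 3 richest follow, 5′ to 3′ on the gene's strand, with each CpG in capitals.
Golga7b, chr19:42255489-42255788, plus strand: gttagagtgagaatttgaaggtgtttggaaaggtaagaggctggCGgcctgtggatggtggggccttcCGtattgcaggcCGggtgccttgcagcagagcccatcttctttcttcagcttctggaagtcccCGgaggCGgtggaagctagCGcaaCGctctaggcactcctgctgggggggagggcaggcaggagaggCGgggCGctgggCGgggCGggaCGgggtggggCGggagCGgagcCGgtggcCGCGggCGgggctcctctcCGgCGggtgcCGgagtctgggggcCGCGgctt
Gdnf, chr15:7813477-7813776, plus strand: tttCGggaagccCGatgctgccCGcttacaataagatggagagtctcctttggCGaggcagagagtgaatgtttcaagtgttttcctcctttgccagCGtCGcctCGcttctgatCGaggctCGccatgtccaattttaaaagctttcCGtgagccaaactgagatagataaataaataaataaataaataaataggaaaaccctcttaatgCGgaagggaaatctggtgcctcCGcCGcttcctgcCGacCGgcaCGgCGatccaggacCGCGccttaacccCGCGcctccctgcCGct
Cdh8, chr8:99416422-99416721, minus strand: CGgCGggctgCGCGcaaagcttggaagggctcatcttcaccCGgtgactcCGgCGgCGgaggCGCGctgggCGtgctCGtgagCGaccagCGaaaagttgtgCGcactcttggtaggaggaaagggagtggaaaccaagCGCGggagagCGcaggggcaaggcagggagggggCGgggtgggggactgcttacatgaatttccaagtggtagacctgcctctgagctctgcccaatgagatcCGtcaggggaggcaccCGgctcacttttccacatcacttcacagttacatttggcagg
The Golga7b window held 23 CpG, and 21.5% of all windows held at least as many. The Gdnf window held 22 (23.1% of windows) and the Cdh8 window 21 (24.8%). Golga7b and Gdnf each have another annotated start with fewer, 4 and 11. Windows this rich are therefore common among mouse promoters, and no Polycomb or histone mark was measured in these libraries.

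The clearest lower gene was a collagen. Col12a1, a fibril-associated collagen (chromosome 9, 79598991 to 79718831, minus strand), had 297, 257, 158 and 159.7 counts with H3.3G34R and 1311, 2173, 958 and 1038 with H3.3WT. Each H3.3WT tumour was above the highest H3.3G34R tumour, and the log2 change was -2.63 (SE 0.34, limma adjusted p = 0.146, edgeR adjusted p = 0.214). In the authors' deposited table its adjusted p is 2.46e-08. Slc27a1, a fatty acid transporter, had 1505, 1137, 1211 and 1271 counts with H3.3G34R and 2183, 2551, 1769 and 1936 with H3.3WT. The groups did not overlap, with a smaller log2 change of -0.71 (SE 0.18). Manba, a lysosomal mannosidase, averaged 624 ± 39.2 counts with H3.3G34R and 1164 ± 291 with H3.3WT, and Dbp, a transcription factor of the circadian clock, averaged 531 ± 105 with H3.3G34R and 912 ± 186 with H3.3WT (SD, n = 4 each). Gigyf1, a repressor of translation, averaged 3137 ± 489 with H3.3G34R and 4971 ± 960.2 with H3.3WT, and Tctn1, a protein of the primary cilium's transition zone, 391 ± 109 with H3.3G34R and 690.0 ± 92.2 with H3.3WT. Ccdc150, a coiled-coil protein, had 7.15 to 10.5 counts with H3.3G34R and 20.5 to 41.9 with H3.3WT, and the serotonin receptor gene Htr2b 1.92 to 16.9 with H3.3G34R and 20.5 to 53.5 with H3.3WT. Casq1, the calcium store protein calsequestrin, had 8.34 to 40.6 with H3.3G34R and 66.9 to 144 with H3.3WT, and Lgals4, a galectin, 31.9 to 70.8 with H3.3G34R and 82 to 323 with H3.3WT. These 10 genes were picked as the lower genes of smallest limma p whose groups did not overlap. Such lower genes were 211 of 17521 tested (1.2%).

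The authors' deposited table calls the 10 genes given in this paragraph, of which 6 did not overlap between groups. It also calls Slc32a1, Nefl, Stmn2, Gad2, Bhlhe22, Nptx1 and Mmp2, which are described further below. Zfp536, a zinc finger repressor of neuronal differentiation, had 336, 450.5, 539 and 385 counts with H3.3G34R and 132, 213, 184 and 173 with H3.3WT. Slfn4, a Schlafen gene of myeloid cells with close copies that make its reads uncertain, had 62.2, 80.7, 168 and 109.7 with H3.3G34R and 28.7, 22.9, 14.5 and 32.6 with H3.3WT. Both were high in all H3.3G34R tumours, with limma log2 changes of 1.28 (SE 0.28) for Zfp536 and 2.01 (SE 0.46) for Slfn4. Adcy2, a further adenylyl cyclase, had 105, 184, 326 and 66.7 counts with H3.3G34R and 39.2, 14.9, 35 and 54.9 with H3.3WT. Replicate 3 was the highest, and replicate 4 came close to the highest H3.3WT tumour. Lrfn5, a synaptic adhesion protein, had 17.9 to 222 counts with H3.3G34R and 0 to 13 with H3.3WT, and Cckbr, the brain cholecystokinin receptor, had 2.99 to 102 with H3.3G34R and 0 to 0.931 with H3.3WT. Gpr22, an orphan receptor, had 41.2, 1.99, 55.1 and 1.19 counts with H3.3G34R and was at 0 in all H3.3WT libraries, so that its mean was at least 8.54-fold higher. The neurensin genes Nrsn1 and Nrsn2, of neuronal vesicles, were highest in replicate 3 and overlapped. Igkv1-117, an antibody light chain segment, overlapped through H3.3G34R replicate 2 at 0. Hmga1b, whose reads are uncertain because of a near-identical gene, was lower, with 2.9 to 22.6 counts with H3.3G34R and 17.9 to 307 with H3.3WT.

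The neuronal gene lists leaned higher. They hold some of the single genes above, with Syt4 and Rph3a among vesicle genes, Nefm among axon genes and Cacng2 among channels. The lists were also chosen with earlier results known, so they do not add separate support. Of 40 synaptic vesicle and release genes, all tested, 31 were positive, at a median log2 change of 0.39 against -0.00 over all genes tested. Of them 7 had an unadjusted p under 0.05, all higher, which is 17.5% of the list against 2.79% of all genes tested. The groups did not overlap in 4 of the 40, against 2.16% of all genes. Without H3.3G34R replicate 3, 39 of the list passed the filter on low values and 24 were positive. Snap25, a component of the fusion machinery, had 962, 713, 3276 and 749 counts with H3.3G34R and 231, 53.7, 265 and 492 with H3.3WT. All H3.3G34R tumours were above all H3.3WT tumours, and replicate 3 was far the highest (log2 change 2.50, SE 0.69). Slc32a1, the vesicular transporter of GABA, had 40.2, 1.99, 388 and 117 counts with H3.3G34R and 1.91, 0, 1.71 and 1.86 with H3.3WT, so that H3.3G34R replicate 2 was just above the highest H3.3WT tumour. Of the 24 neurofilament and axon cytoskeleton genes, 20 were positive, with a median of 0.44 and 3 at an unadjusted p under 0.05 (12.5% of the list). Nefl, the light neurofilament chain, had 23, 21.9, 505 and 241 counts with H3.3G34R and 8.6, 3.43, 1.71 and 9.31 with H3.3WT, and Stmn2, a regulator of microtubules in growing axons, had 88.1, 7.97, 1189 and 215 with H3.3G34R and 18.1, 3.43, 9.4 and 14.9 with H3.3WT. Nefl did not overlap between groups, whereas H3.3G34R replicate 2 lay within the H3.3WT range for Stmn2.

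Receptors, channels and peptides followed, and their shares below stand against 2.79% of all genes tested at an unadjusted p under 0.05. Of 38 tested glutamate and GABA receptor genes, 33 were positive (median 0.42, 5 or 13.2% at an unadjusted p under 0.05), and of 34 neuronal ion channel genes 23 were positive (median 0.20, 4 or 11.8% at that p). Of 20 tested secretory granule and neuropeptide genes, 18 were positive, with a median of 1.23 and 4 at an unadjusted p under 0.05 (20.0% of the list). These counts are partly set by the filter on low values, which some members passed only through the H3.3G34R tumours: Cck and Adcyap1 were at 0 in all H3.3WT libraries. Without H3.3G34R replicate 3, 17 granule and neuropeptide genes passed it and 13 were positive. For receptors 34 passed and 24 were positive, and for channels 32 passed and 16 were positive. Chgb, a granin of secretory granules, had 499, 1109, 1682 and 268 counts with H3.3G34R and 274, 40, 129.8 and 237 with H3.3WT, where only H3.3G34R replicate 4 fell below an H3.3WT tumour. Sst, the peptide somatostatin of interneurons, had 34.5, 3.99, 922 and 46.5 with H3.3G34R and 0, 1.14, 3.42 and 6.51 with H3.3WT. Gad2, the enzyme that makes GABA, had 65.1, 2.99, 949 and 73.9 with H3.3G34R and 0.955, 3.43, 0 and 7.44 with H3.3WT. For both, replicate 3 was far above the other H3.3G34R tumours and replicate 2 lay within the H3.3WT range.

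Regulators of early neurons gave a similar count. Of 29 tested proneural and early neuron regulators, 23 were positive (median 0.37, or 0.25 without replicate 3). Of the 29, 3 or 10.3% had an unadjusted p under 0.05, against 2.79% of all genes tested. Sox11, a transcription factor of newborn neurons, had 6684, 5578, 2815 and 4973 counts with H3.3G34R and 1428, 2278, 4137 and 2585 with H3.3WT. H3.3G34R replicate 3 was the lowest of its group and overlapped the H3.3WT tumours (log2 change 0.98, SE 0.36). Pou3f2, a neural POU factor, had 1293, 1135, 950.4 and 1123 counts with H3.3G34R and 573, 758, 928 and 903 with H3.3WT, without overlap (log2 change 0.53, SE 0.22). Celf4, a neuronal regulator of mRNA, had 850.3, 417, 1784 and 348 with H3.3G34R and 133, 64, 343 and 286 with H3.3WT, also without overlap. Bhlhe22, a factor of neuronal subtype identity, had 336, 332, 60.9 and 278 counts with H3.3G34R and 76.4, 48, 60.6 and 51.2 with H3.3WT. Its low H3.3G34R tumour was replicate 3, and without it the log2 change was 2.41 in place of 1.83. Nptx1, a secreted organizer of synapses, had 13241, 6785, 2427 and 1584 with H3.3G34R and 1073, 1113, 1632 and 1027 with H3.3WT, with the highest values in replicates 1 and 2.

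Markers of mature cortical neurons, a list that shares Cck with the granule and neuropeptide list, also leaned higher. Of the 24 listed, 23 were tested and 21 were positive, at a median log2 change of 0.91, with 6 at an unadjusted p under 0.05 (26.1% of the tested markers, against 2.79% of all genes) and 3 without overlap (2.16% of all genes). Their summed counts were 42086, 39891, 65192 and 38306 with H3.3G34R and 42514, 31282, 34436 and 35220.1 with H3.3WT. The filter on low values partly sets the numbers of markers here too, since Cck was at 0 in all H3.3WT libraries. Without H3.3G34R replicate 3, 22 markers passed the filter and 18 were positive. Camk2a, a kinase of excitatory cortical neurons, had 84.3, 32.9, 5284 and 143 counts with H3.3G34R and 139, 27.4, 27.3 and 70.7 with H3.3WT, so that only replicate 3 stood out. Without replicate 3 the median was 0.35 for these markers, 0.17 for vesicle genes, -0.01 for channels, 0.14 for receptors, 0.57 for granule genes and 0.37 for axon cytoskeleton genes. Without replicates 3 and 4 it was 0.31 for the markers, 0.46 for vesicle genes, 0.56 for channels and 0.54 for receptors. It was 0.88 for granule genes and 0.56 for axon cytoskeleton genes. For vesicle genes, channels and receptors, H3.3G34R replicate 4 had the lowest summed counts of the Atrx-floxed tumours (51282.5, 15681.8 and 39958.3). The lowest H3.3WT sums were 57890.2, 30063.6 and 51723.2. Leaving out replicate 4 alone raised these medians to 0.79, 0.64 and 0.73. For the markers, granule genes and axon cytoskeleton genes, replicate 4 did not have the lowest sum. The share of normal cortex in each tumour was not measured, and its part in these values was not tested. In bulk tissue a smaller number of cells of a type and less RNA per cell cannot be told apart.

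**Figure D2:**
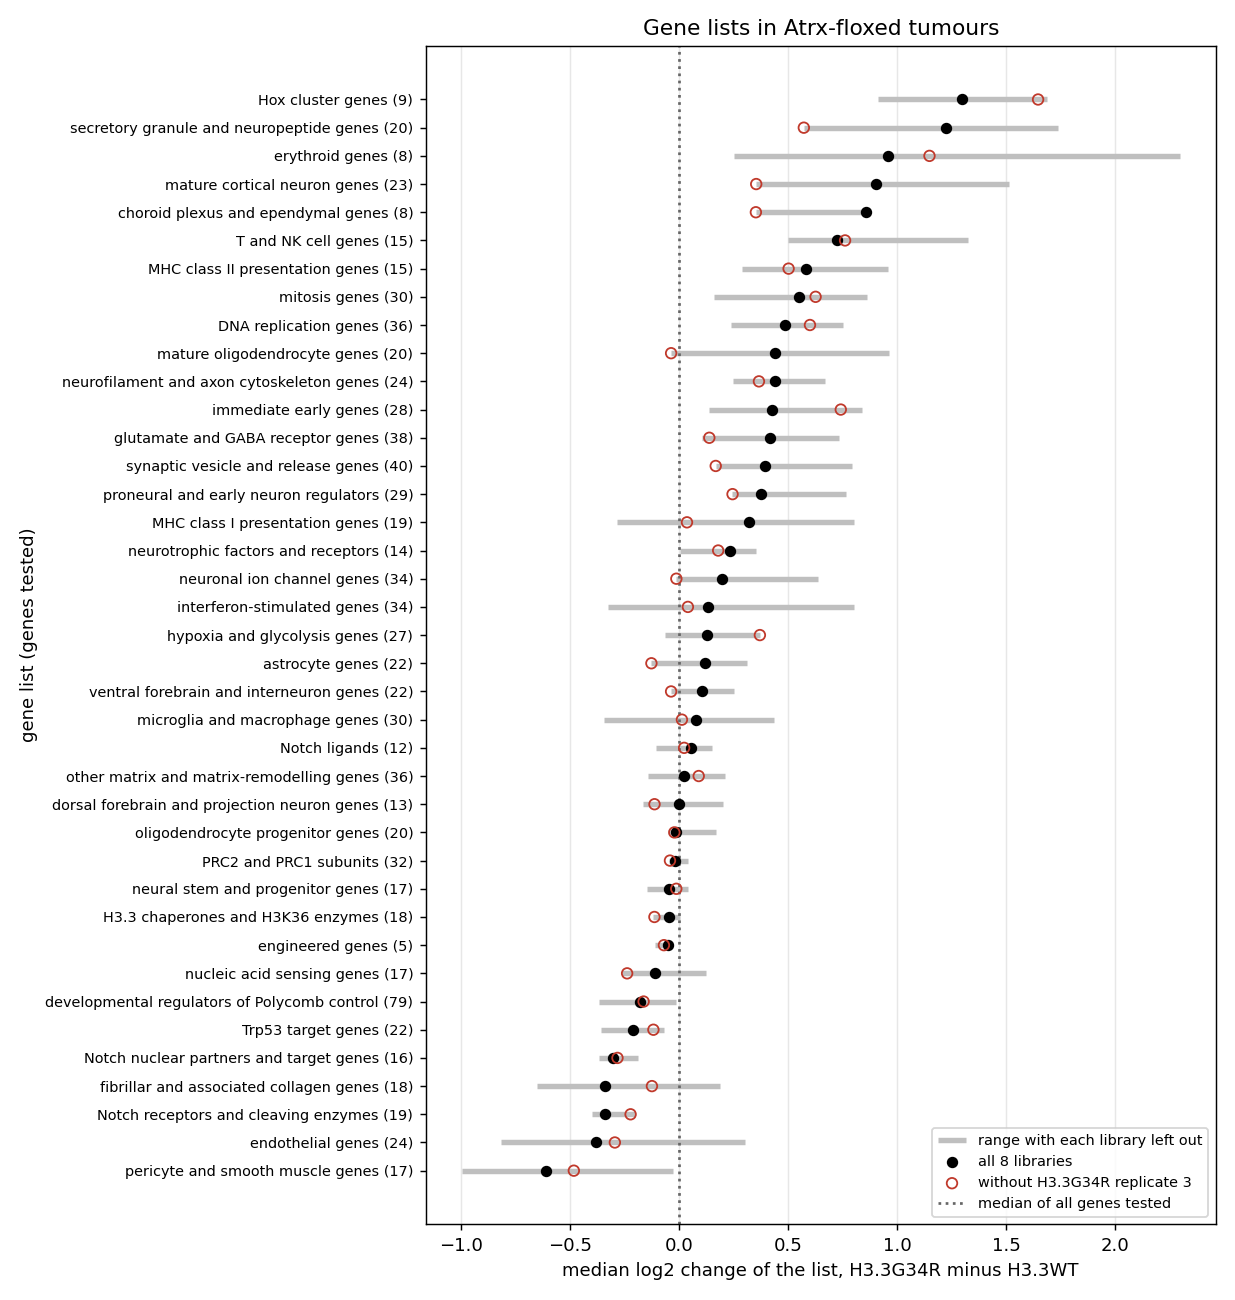
Median log2 change, H3.3G34R minus H3.3WT, of the tested members of each gene list (numbers in brackets), for all 8 libraries (filled), without H3.3G34R replicate 3 (open) and over the range with each library left out (bar), with a dotted line at the median of all genes tested. The granule and neuropeptide list lies at 1.23 and moves to 0.57 without replicate 3, while the endothelial list runs from -0.81 to 0.30 over the libraries left out.

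Genes that mark position along the developing neural tube differed in level between tumours, and a few were at 0 in some. Zic2, of the neural Zic factors and chosen after its values were seen, had 393, 190.4, 149.9 and 109.7 counts with H3.3G34R and 415, 662, 443 and 256 with H3.3WT, with overlap (log2 change -1.16). Zic5 and Dlx6, chosen likewise, were also lower, Zic5 with 17.9 to 79.5 with H3.3G34R and 66.1 to 109.7 with H3.3WT and Dlx6, a factor of ventral forebrain interneurons, with 1.92, 3.99, 71.5 and 2.38 with H3.3G34R and 26.7, 82.3, 12 and 132 with H3.3WT. Emx2, of the dorsal forebrain and chosen likewise, had 19.2, 0.997, 199 and 1.19 with H3.3G34R and 8.6, 173, 70 and 194 with H3.3WT, and for Emx2 and Dlx6 replicate 3 was the high H3.3G34R tumour.

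Other positional genes were higher. Irx1 and Irx2 are homeobox factors that pattern the neural plate. Irx1 did not overlap between groups, with 1682, 1384, 1457 and 1622 counts with H3.3G34R and 934, 663, 1214 and 1006 with H3.3WT. Irx2 had 949.9, 1097, 574 and 1092 with H3.3G34R and 489, 601, 296 and 445 with H3.3WT, with replicate 3 inside the H3.3WT range. Their log2 changes were 0.72 (SE 0.22) for Irx1 and 1.02 (SE 0.30) for Irx2. Vax1, an optic and ventral forebrain factor chosen after its values were seen, had 81.4, 144, 82.2 and 0 counts with H3.3G34R and 0, 0, 0 and 6.51 with H3.3WT. Six3, of the anterior forebrain and eye and chosen likewise, had 593, 663, 656 and 0 with H3.3G34R and 246, 1.14, 0.854 and 65.1 with H3.3WT. In both, replicate 4 was the H3.3G34R tumour at 0, and Vax1 was also at 0 in H3.3WT replicates 1, 2 and 3. Foxd1, chosen likewise, had 497, 467, 24.2 and 58.4 with H3.3G34R and 168, 3.43, 18.8 and 8.37 with H3.3WT. Hox genes give hindbrain and spinal cord segments their identity. Of the 39 listed, 9 were tested and all 9 were positive, at a median log2 change of 1.30 and a range of 0.91 to 1.69 with each library left out. Hoxa4 had 330.4, 244, 290.1 and 552 counts with H3.3G34R and 132, 225, 192 and 60.5 with H3.3WT, without overlap (log2 change 1.30, SE 0.46). Hoxa5 had 682, 790.3, 477 and 893 with H3.3G34R and 389.7, 481, 190.5 and 44.7 with H3.3WT, with replicate 3 just inside the H3.3WT range. The other Hox genes were under the mean of 10 and were not tested, and a gene can reach that mean through 1 group alone. Hox genes lie side by side in clusters, so these 9 are not 9 separate observations.

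**Figure D3:**
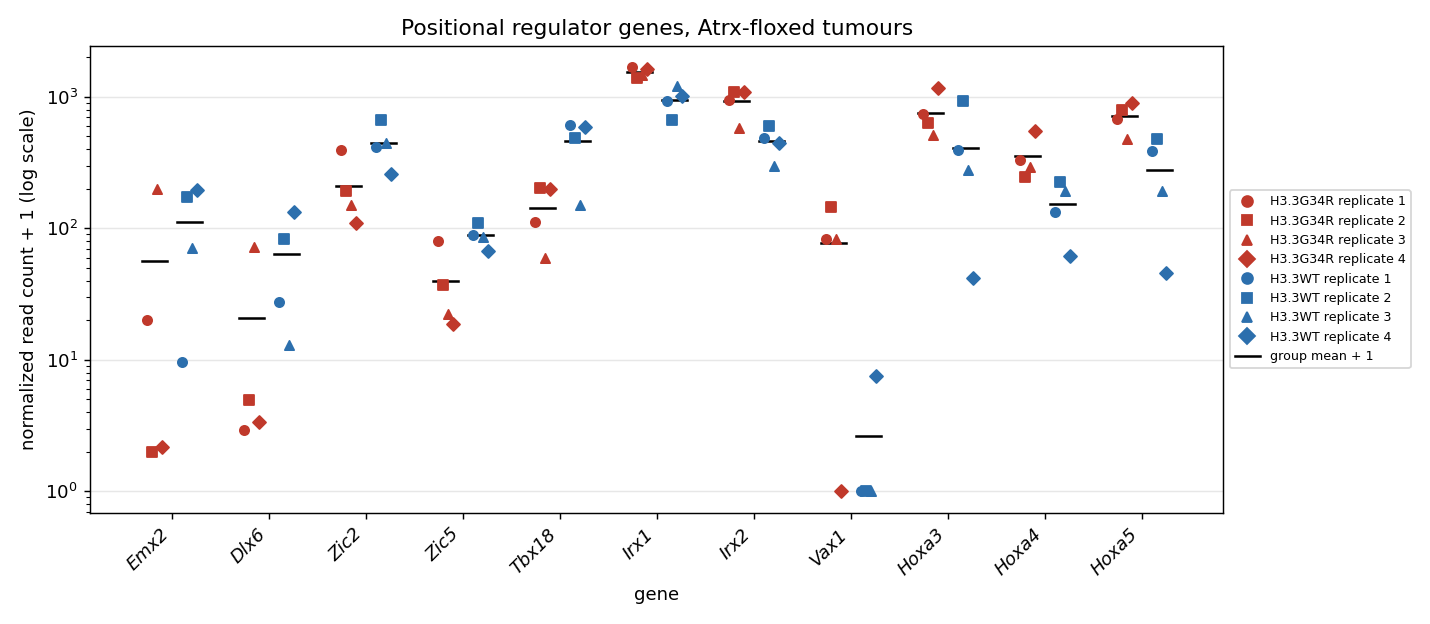
Normalized read count plus 1 (log axis) of positional genes in the 4 H3.3G34R (left of each pair) and 4 H3.3WT tumours, with symbols for replicates and a line at the group mean. Vax1 is at 0 in H3.3G34R replicate 4 and H3.3WT replicates 1, 2 and 3, while Hoxa4 lies between 244 and 552 with H3.3G34R and between 60.5 and 225 with H3.3WT.

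The wider list of developmental regulators under Polycomb control did not lean up. Of 125 listed, 79 were tested, 34 were positive and the median log2 change was -0.18. At an unadjusted p under 0.05, 4 were higher and 6 lower (12.7% of the tested members). Of all genes tested, 1.61% were higher and 1.18% lower at that p, 2.79% in all. Tbx18, a T-box factor of mural and mesenchymal cells, was lower, with 111, 201, 59 and 197 counts with H3.3G34R and 606, 484, 150.3 and 591 with H3.3WT. Tbx20 had 11.5, 0.997, 2.9 and 0 with H3.3G34R and 33.4, 11.4, 18.8 and 17.7 with H3.3WT. Tbx18 overlapped through H3.3WT replicate 3, and Tbx20 through H3.3G34R replicate 1. The PRC2 and PRC1 subunits themselves had 15 of 32 positive and a median of -0.02, with 0 at an unadjusted p under 0.05. Ezh2, the methyltransferase of PRC2, had 1245, 1472, 1756 and 2877 counts with H3.3G34R and 867, 417, 1975 and 1499 with H3.3WT, with overlap. The 18 chaperones of H3.3 and enzymes of K36 had a median of -0.05, with 6 positive.

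Notch genes leaned lower. In this pathway a ligand on 1 cell makes secretases cut the receptor on the next, and the freed fragment turns on target genes that hold back neuronal differentiation. Of 19 receptors and cleaving enzymes 3 were positive, at a median log2 change of -0.34 and a range of -0.40 to -0.20 with each library left out. Notch1 had 4789.7, 6289.6, 5220.1 and 3099 counts with H3.3G34R and 5996, 8359, 6311 and 7987 with H3.3WT, overlapping through H3.3G34R replicate 2 (log2 change -0.59, SE 0.24). Ncstn, the nicastrin subunit of gamma-secretase, had 3485, 3782, 3018 and 3397 with H3.3G34R and 4639, 9163, 4126 and 5319 with H3.3WT, without overlap (log2 change -0.70, SE 0.25). Summed over the list, counts were 31386, 34033, 29235 and 27546 with H3.3G34R and 52757, 46353, 34407 and 34994 with H3.3WT. Of 16 tested nuclear partners and target genes 2 were positive, with a median of -0.30 and 0 at an unadjusted p under 0.05. The 12 ligands had 7 positive and a median of 0.06.

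Genes of the cell cycle leaned higher without any passing an unadjusted p of 0.05. All 30 mitosis genes were positive, at a median log2 change of 0.55 that ranged from 0.16 without H3.3WT replicate 1 to 0.86 without H3.3WT replicate 3. Their summed counts were 49102, 70236, 57523 and 104242 with H3.3G34R and 18433, 40039, 88572 and 67790.1 with H3.3WT, so the lowest and the second highest tumour were both H3.3WT. Of 36 replication genes 33 were positive (median 0.49, from 0.24 to 0.75 with each library left out). Mcm2, a subunit of the replicative helicase, had 2863, 2936, 2877 and 4572 with H3.3G34R and 1207, 1207, 3421 and 2972 with H3.3WT. The genes of each list were counted in the same 8 tumours and are not replicates. Of 22 tested Trp53 targets 4 were positive (median -0.21, from -0.36 to -0.07 with each library left out), with 0 at that p.

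Collagen and vessel genes had negative medians that turned positive without 1 H3.3WT tumour, except for pericyte genes. Of 18 tested collagen genes 7 were positive, at a median log2 change of -0.34 that was 0.19 without H3.3WT replicate 1. Col6a1 had 515, 468, 775 and 1396 counts with H3.3G34R and 2932, 2295, 1544 and 912 with H3.3WT, and Col5a1 had 1348, 2027, 1404 and 1243 with H3.3G34R and 3335, 5829.7, 2299 and 1486 with H3.3WT. In both the groups overlapped by 1 H3.3WT tumour, replicate 4. Mmp2, a matrix protease, had 318, 319, 154 and 313 counts with H3.3G34R and 2490.2, 494, 289 and 5291 with H3.3WT, and is called in the authors' deposited table (adjusted p = 0.0403). Postn, the matrix protein periostin, had 2318, 2821, 958 and 967 with H3.3G34R and 13767, 2947, 2139.7 and 4173 with H3.3WT. Endothelial markers summed to 52990.2, 41104, 24899 and 26242 with H3.3G34R and 180560.0, 23283, 43628 and 22643 with H3.3WT, and pericyte and smooth muscle markers to 59693, 91690.2, 56876 and 41271 with H3.3G34R and 191469, 49865, 68739 and 61109 with H3.3WT. The defining markers Cldn5, Pdgfrb and Rgs5 had 20866, 20958 and 58633 counts in H3.3WT replicate 1. Of 24 endothelial genes 2 were positive, with a median of -0.38 that was 0.30 without H3.3WT replicate 1. Of 17 pericyte and smooth muscle genes 1 was positive, with a median of -0.61 that was -0.03 without that tumour. Col12a1 had 2173 counts in H3.3WT replicate 2, 1311 in replicate 1, 1038 in replicate 4 and 958 in replicate 3. The part of vessel cells in these values was not tested.

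**Figure D4:**
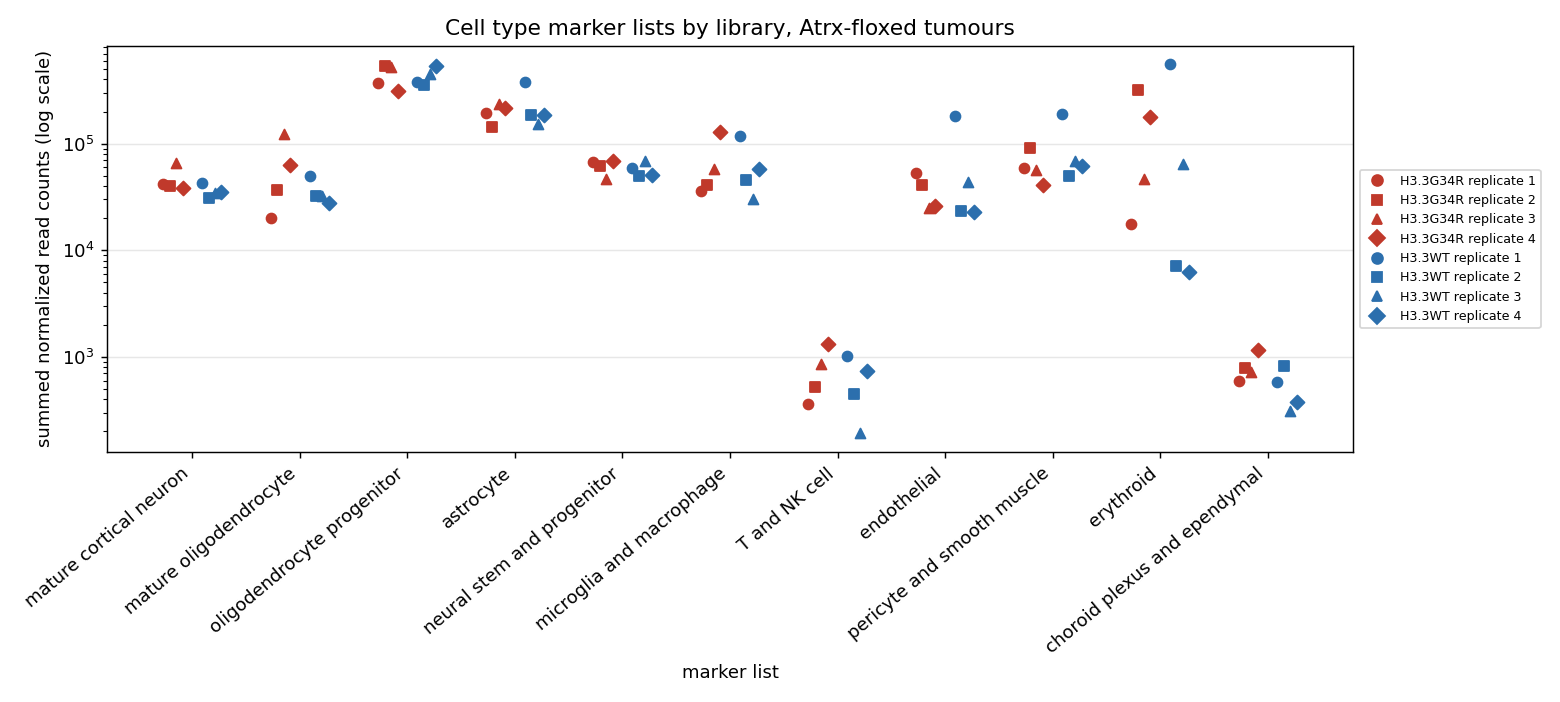
Summed normalized read counts (log axis) of each cell type marker list in the 4 H3.3G34R (left of each pair) and 4 H3.3WT tumours, with symbols for replicates. H3.3WT replicate 1 stands above all others in endothelial (180560.0) and pericyte markers (191469), and H3.3G34R replicate 3 in mature oligodendrocyte (122404) and cortical neuron markers (65192).

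Glial and immune lists varied by tumour. The 20 oligodendrocyte progenitor genes had 9 positive and a median log2 change of -0.02. The 20 mature oligodendrocyte genes had 18 positive and a median of 0.44, which was -0.04 without H3.3G34R replicate 3 and -0.25 without replicates 3 and 4. Mobp, a myelin protein, had 129, 0.997, 13255 and 3868 counts with H3.3G34R and 60.2, 307, 33.3 and 42.8 with H3.3WT. The 22 astrocyte genes had 14 positive (median 0.12) and the 17 tested stem and progenitor genes 8 positive (median -0.04). Microglia and macrophage genes had 18 of 30 positive and a median of 0.08 that was -0.68 without H3.3G34R replicates 3 and 4. Interferon-stimulated genes had 24 of 34 positive and a median of 0.14, which was -0.57 without the same tumours. The 15 class II presentation genes had 14 positive and a median of 0.58, which was 0.29 without H3.3WT replicate 3 and 0.13 without H3.3G34R replicates 3 and 4. Cd74, the invariant chain of class II, had 16996, 6498, 17790.5 and 24812 counts with H3.3G34R and 11654, 3388, 3987 and 13896 with H3.3WT, with overlapping groups (log2 change 1.12, SE 0.55). Of 15 tested T and NK cell genes 12 were positive, with a median of 0.72 that was 0.28 without H3.3G34R replicates 3 and 4, and all 8 erythroid genes were positive (median 0.96, from 0.25 to 2.30 with each library left out).

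Immediate early genes, which cells induce within minutes of a stimulus, were positive for 23 of 28, with a median log2 change of 0.43 that ran from 0.14 without H3.3WT replicate 3 to 0.84 without H3.3WT replicate 1. Myc had 2979, 6863, 2689.8 and 6954 counts with H3.3G34R and 2113, 2286, 2199.5 and 2512 with H3.3WT, without overlap (log2 change 0.96, SE 0.33). Jun had 10412, 16430.1, 5335 and 17884 with H3.3G34R and 7897, 4551, 6129 and 5888 with H3.3WT, with replicate 3 inside the H3.3WT range, and Nr4a3 had 405, 1334, 401 and 2881 with H3.3G34R and 268, 459.5, 196 and 291 with H3.3WT. H3.3G34R replicates 2 and 4 were the highest for all 3 genes. Hypoxia and glycolysis genes had 19 of 27 positive and a median of 0.13, which was -0.06 without H3.3G34R replicate 4 and 0.37 without H3.3G34R replicate 3. How long tissue waited before extraction is not stated, and its part in these values was not tested.

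Whether H3.3G34R acted differently with Atrx floxed and with Atrx intact was asked in 1 fit over all 15 libraries. For the difference of the effects, 0 of 17776 genes passed an adjusted p of 0.05 with limma (0.0%), and 365 had an unadjusted p under 0.05 (2.05%). DESeq2 called 15 and edgeR 0. Of the 29 genes higher in the authors' deposited table with Atrx floxed, 11 were positive with Atrx intact, against 8749 of all 17345 genes with a value there. That count includes Atrx-intact H3.3WT replicate 3, a tumour rich in cortex genes, and was not repeated without it. Without that tumour the Atrx-intact log2 change went from -0.82 to 1.16 for Golga7b and from 0.55 to 1.76 for Nefm. For Trib1 it went from 0.79 to 0.39. The 29 were picked on the Atrx-floxed tumours, so their differences are given as descriptions. Adcy8 had a log2 change of -1.94 (SE 0.61) with Atrx intact, and the difference, Atrx-floxed minus Atrx-intact, was 3.55 (SE 0.83, limma adjusted p = 0.9996). Socs5 had -0.22 (SE 0.24) with Atrx intact and a difference of 1.22 (SE 0.33, limma adjusted p = 0.9996). With each of the 15 libraries left out, the difference ran from 3.06 to 4.11 for Adcy8 and from 1.08 to 1.39 for Socs5. Trib1 and Gdnf pointed the same way in both settings, with 0.79 (SE 0.39) and 1.39 (SE 0.71) with Atrx intact and differences of 0.22 (SE 0.53) and 1.35 (SE 0.97). The Trib1 difference was -0.10 without Atrx-intact H3.3WT replicate 4, and the Gdnf difference 0.61 without Atrx-intact H3.3G34R replicate 2. Syt4 had 0.50 (SE 1.23) with Atrx intact, too wide a spread to separate from its value in Atrx-floxed tumours (difference 1.59, SE 1.67, from 0.82 to 3.04 with each library left out).

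Among lower genes, Ccdc150 had a log2 change of 1.42 (SE 0.50) with Atrx intact and a difference of -3.04 (SE 0.69). Col5a1 had 1.06 (SE 0.40) with Atrx intact and a difference of -2.01 (SE 0.54). Col12a1 had 0.73 (SE 0.92) with Atrx intact and a difference of -3.36 (SE 1.26), values that 1 tumour moved most. Its Atrx-intact counts were 15840.0, 341 and 527 with H3.3G34R and 649, 724, 1046 and 1094 with H3.3WT. Without that first H3.3G34R tumour its value with Atrx intact was -1.01 and the difference -1.62. All 3 differences had a limma adjusted p of 0.9996. Collagen genes as a list had 17 of 18 positive with Atrx intact (median 1.02), against 7 of 18 with Atrx floxed, and 14 to 17 positive with each Atrx-intact library left out. Vesicle genes had 2 of 40 positive with Atrx intact (median -0.84), against 31 of 40 with Atrx floxed. One Atrx-intact H3.3WT tumour, replicate 3, was rich in cortex genes, with 37984 counts of Snap25 and 17439 of Mobp on the scale of all 15 libraries. Without it, 20 of the 40 vesicle genes were positive with Atrx intact, with a median of 0.00.

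**Figure D5:**
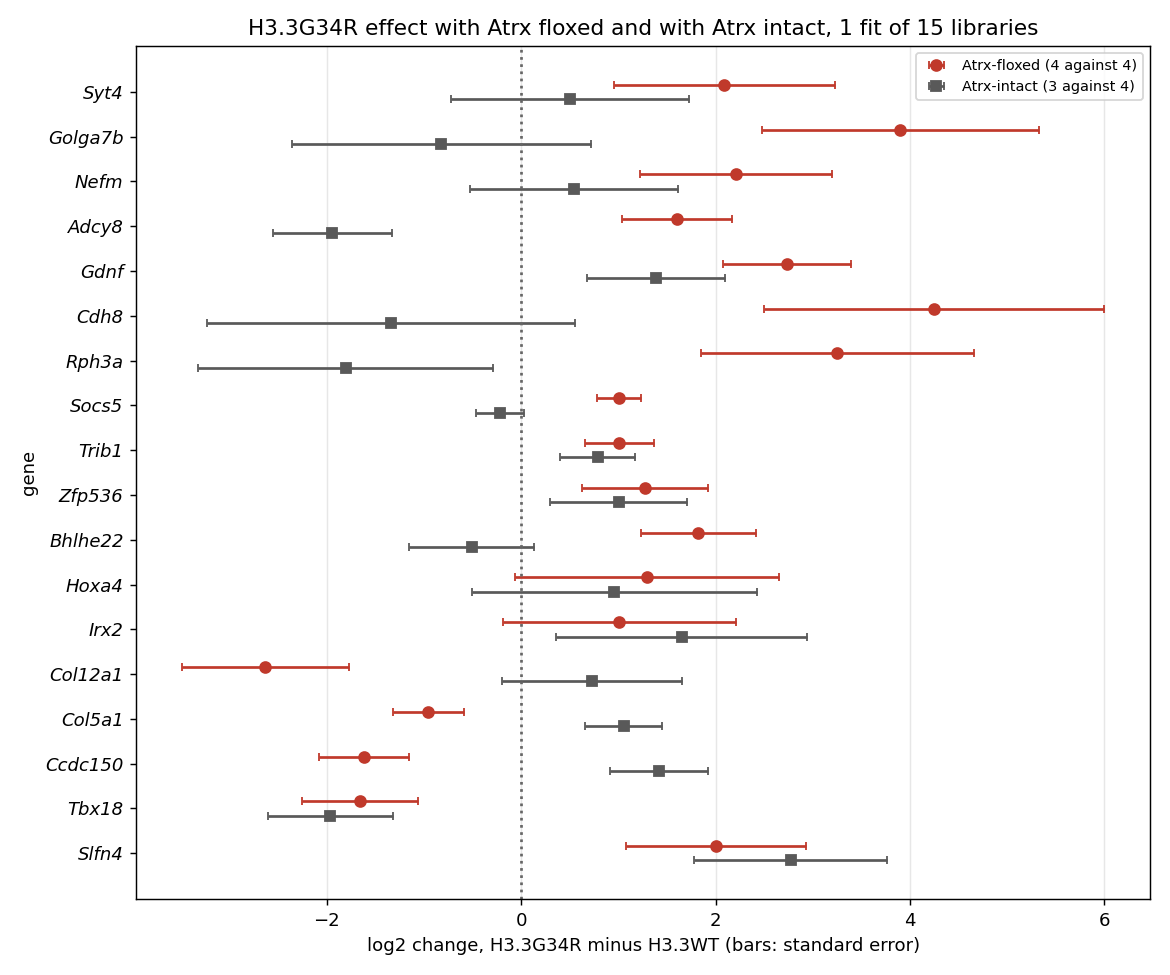
Log2 change with its standard error, H3.3G34R minus H3.3WT, for named genes in Atrx-floxed (circles, 4 against 4 libraries) and Atrx-intact tumours (squares, 3 against 4), from 1 fit over 15 libraries. Trib1 and Gdnf are positive in both settings, while Adcy8 lies at -1.94 with Atrx intact.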

How the data were processed

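RNA of frontal cortex tumours was extracted with a Qiagen RNeasy kit and sequenced after TruSeq mRNA preparation, as the labels' protocols state. The submitters' processing notes name STAR 2.7, HTSeq and DESeq2 and the mm10 build. Neither the strand setting nor the annotation is given in the sources used here. Each library column of the deposited table is a signal, the read count of a gene over the size factor of the library. Its other deposited columns are the authors' log2 fold change, SE, Wald score, p-value and adjusted p. All values were whole multiples of 1 read (100% within 0.01), so reads were recovered. Of the gene IDs, 99.9% matched GENCODE vM21 (54165 of 54232), which gave symbols and positions.

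Because the deposited values are normalized, the main test was limma 3.58.1 (trend and robust options, R 4.3.3) on log2(value + 1). Genes had to average 10 or more over the 8 libraries, and a call needed an adjusted p (Benjamini-Hochberg) under 0.05. Adding the pseudocount understates changes of genes with few counts. The difference between Atrx settings was fitted on the recovered reads of 15 libraries scaled by the median of ratios. Leaving out each library for single genes and lists with Atrx intact was chosen after seeing the data. Alternatives were DESeq2 1.42.0, edgeR 4.0.16, limma-voom with quality weights, TMM scaling, pseudocounts of 0.5 and 5, no filter, all 4 groups in 1 fit, the H3.3G34R libraries with a shared title code (replicates 1 and 4) summed, log2 Xist as a covariate and each library left out, all on the same 8 libraries unless stated. The package data.table (version 1.17.8) read the tables. The main limma fit of the 8 libraries and the limma fit of the difference were tested on simulated data, and the alternatives were not.

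The members, the 39 gene lists and the tests were chosen with earlier results of these data known. Named are the engineered genes, the 10 higher and 10 lower genes of smallest p whose groups do not overlap, and the calls of the authors' deposited table. Predicted genes, clones, pseudogenes and mitochondrial genes are not named. From each list the 4 tested genes of smallest p could be named, with the defining markers of a cell type. Others are stated as chosen after their values were seen. Sums over a list weigh its most counted genes, and fold floors take 3 reads per library. Genes withheld for evaluations are not reported here.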

Additional observations from a re-analysis of the deposited data

Results flagged for a closer look

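In each group of 4 tumours, the highest or lowest value was set against the other 3 with Dixon's test at its 95% critical value. Of 200 combinations of a gene or marker list with a group, 36 were marked. Chance would mark about 1 in 20 groups of normally distributed values, and the distribution of these counts was not checked. Several genes were also chosen after 1 tumour was seen to be extreme, so the number of marks cannot be set against that share. Of the 36, 10 were in H3.3G34R replicate 3 and 6 in H3.3G34R replicate 4, and 10 in H3.3WT replicate 1, 5 in H3.3WT replicate 2, 1 in H3.3WT replicate 3 and 4 in H3.3WT replicate 4.

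H3.3G34R replicate 3 was far above the other H3.3G34R tumours for the neuronal genes Gad2 (949 normalized counts), Cckbr (102), Nrsn1 (799), Snap25 (3276), Sst (922) and Camk2a (5284). The summed mature cortical neuron genes were also highest there (65192). Among the H3.3G34R tumours, the forebrain genes Emx2 (199) and Dlx6 (71.5) were highest in replicate 3, and Mmp2 was lowest (154). H3.3WT replicate 4 had 194 counts of Emx2 and 132 of Dlx6.

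H3.3G34R replicate 4 stood above its group for Mcm2 (4572), Pax3 (229), Foxd3 (746), Nkx2-2 (15472) and Tlx3 (116). Six3 was at 0 in it, against 593 to 663 in the other H3.3G34R tumours.

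H3.3WT replicate 1 stood above its group for Pdgfrb (20958), Rgs5 (58633), Cldn5 (20866), Foxd1 (168) and Nkx2-2 (5323). The same held for its sums of astrocyte (380750.0), endothelial (180560.0), pericyte and smooth muscle (191469) and erythroid genes (554252). Its Pdgfa count was the lowest (11918), against 25645 to 27919 in the other H3.3WT tumours. H3.3WT replicate 2 stood above its group for Tctn1 (828), Casq1 (144), Mobp (307) and Tfap2a (928), and its Slc32a1 count was 0. H3.3WT replicate 3 was the highest of its group for Nptx1 (1632). H3.3WT replicate 4 was the highest of its group for Nrsn1 (45.6), Foxd3 (421), Vax1 (6.51) and Cckbr (0.931). All 5 of these genes had higher values in an H3.3G34R tumour.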

How the results depend on the processing

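With 4 tumours a group, limma called 0 genes under every limma setting run, and edgeR and limma-voom also 0, while DESeq2 called 34, of which 29 were higher. The count at an unadjusted p under 0.05 was 488 and became 1008 with no filter, 1166 with DESeq2, 745 with edgeR and 950 with limma-voom with quality weights, and 380 to 680 with each library left out. The count of genes whose groups do not overlap was 379 and became 597 with no filter, 788 with the title code summed and 2158 without H3.3G34R replicates 3 and 4 together, and 624 to 994 with each library left out, since smaller groups overlap less by construction. For the difference between Atrx settings DESeq2 called 15, and with each library left out limma called 0 to 0. The log2 change of Trp53 was 0.18 with limma-voom, against -0.34, and that of Pdgfa 0.57 without H3.3G34R replicates 3 and 4. The cause was not tested. With each library left out, the log2 change ran from -0.31 to 0.08 for Atrx, -0.63 to -0.02 for Trp53, -0.23 to 0.12 for H3f3a, -0.08 to 0.29 for H3f3b and -0.14 to 0.36 for Pdgfa. Of 1678 gene values compared, 1575 moved by less than their SE, 76 moved by more, 27 passed the threshold, all with DESeq2, and 29 changed sign without having been called. Of 741 list medians, 2 moved by more than their spread and 73 had the opposite sign. No paired analysis was possible because the replicate numbers follow the order of the samples and pair no tumours.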

Other observations

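Several developmental regulators, chosen after their values were seen, had their highest level in 1 or 2 tumours, far above the rest. Pax3, a factor of the dorsal neural tube and neural crest, had 0, 0, 0 and 229 normalized counts with H3.3G34R and 0, 1.14, 0.854 and 0 with H3.3WT. Foxd3, of the neural crest, had 7.66, 4.98, 50.3 and 746 with H3.3G34R and 10.5, 62.9, 54.7 and 421 with H3.3WT, so that 1 tumour of each group was high. Nkx2-2, a ventral neural tube factor also active in the oligodendrocyte lineage, had 2172, 2519, 2529 and 15472 with H3.3G34R and 5323, 2514, 2941 and 2968 with H3.3WT. Tlx3, a factor of spinal sensory neurons, had 9.58, 3.99, 6.77 and 116 with H3.3G34R and 4.78, 5.72, 3.42 and 0.931 with H3.3WT. Pax3, Foxd3, Nkx2-2 and Tlx3 were thus all highest in H3.3G34R replicate 4, in which Six3 and Vax1 were at 0. Vax1 was also at 0 in H3.3WT replicates 1, 2 and 3. Tfap2a, of the neural crest, had 7.66, 1.99, 7.73 and 9.54 with H3.3G34R and 15.3, 928, 13.7 and 8.37 with H3.3WT, where replicate 2 alone was high.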
